A study of Mus musculus with 12 samples.

Results

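The genes described here are 10 markers of atrial heart muscle: Mybphl, Myl4, Myl7, Sln, Nppa, Bmp10, Dkk3, Pam, Kcnj3 and Gja5. They were taken by symbol, with every array probe that carries one of those names, and make up 10 of the 19014 gene symbols on the array. Their 21 probe IDs gave 11 distinct measurements (features) of 30854, because IDs whose values were identical on all arrays were merged. Myl4 has 2 features, and each of the other genes has 1. In 6 genes (Gja5, Dkk3, Sln, Bmp10, Pam and Kcnj3) several IDs share 1 feature, so which of the probes was measured cannot be told.

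Hearts came from MHC-CELFΔ mice, FVB/N animals in which the mouse α-myosin heavy chain promoter drives a nuclear dominant negative CELF protein in heart muscle after birth. CELF proteins regulate alternative splicing, and the transgene product blocks that activity. The hemizygous MHC-CELFΔ-574 ("mild") line makes less of the protein than the hemizygous MHC-CELFΔ-10 ("severe") line. Total RNA from whole hearts of females at 3 weeks of age was hybridized to 12 Illumina MouseWG-6 BeadChip arrays: 3 mild line hearts, 3 severe line hearts, and 3 wild type littermates of each line, which lack the transgene and were pooled here as 6 wild type hearts. Each line carries its own transgene insertion, so a difference between the lines cannot be told apart from a difference between insertions. Nothing in the labels divides atria from ventricles, and the share of each heart that was atrial was not measured.

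Atrial and ventricular muscle cells build their contractile apparatus from partly different genes. Atrial cells use their own myosin light chains, restrain the calcium pump with sarcolipin, couple through connexin 40, respond to the vagus nerve through a potassium channel gated by G proteins, and store atrial natriuretic peptide in granules for release into the blood. In whole heart RNA several of these transcripts are thought to come mainly from the atria, a small part of the organ. Connexin 40 is also made elsewhere in the heart, and the source of each transcript was not measured here. A lower signal may mean fewer atrial cells or less RNA in each of them, which cannot be told apart in bulk samples.

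Promoter sequence is shown for 3 genes that span the range of responses described below: Mybphl, the gene with the lowest values relative to wild type, Myl7, used below as the atrial reference, and Nppa, which passed the test in neither line. RefSeq (GRCm38.p6) supplied a start site for 8 of the 10 genes, with 9 start sites in all, and each sequence is the 250 bases before the start, read 5′ to 3′ along the gene. Capitals mark matches, on either strand, to the TATA letters TATAAA, the T-box letters AGGTGT, the letters AGATAA bound by GATA factors, the NKX2-5 letters TNAAGTG, and the CArG box of serum response factor.
Mybphl, chr3:108364661-108364910, plus strand: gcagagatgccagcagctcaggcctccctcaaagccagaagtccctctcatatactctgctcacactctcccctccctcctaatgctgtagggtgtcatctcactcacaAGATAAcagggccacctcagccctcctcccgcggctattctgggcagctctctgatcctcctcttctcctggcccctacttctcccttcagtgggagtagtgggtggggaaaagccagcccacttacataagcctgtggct
Myl7, chr11:5898783-5899032, minus strand: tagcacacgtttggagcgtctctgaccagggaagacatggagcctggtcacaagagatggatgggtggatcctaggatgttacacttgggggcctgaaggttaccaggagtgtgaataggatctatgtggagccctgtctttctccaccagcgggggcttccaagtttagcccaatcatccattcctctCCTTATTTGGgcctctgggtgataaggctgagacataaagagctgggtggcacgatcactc
Nppa, chr4:148000472-148000721, plus strand: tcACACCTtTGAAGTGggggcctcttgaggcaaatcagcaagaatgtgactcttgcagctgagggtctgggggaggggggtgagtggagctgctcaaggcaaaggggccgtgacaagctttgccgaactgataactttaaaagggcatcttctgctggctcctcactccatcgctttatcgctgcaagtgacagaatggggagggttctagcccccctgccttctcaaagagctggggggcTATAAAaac
Mybphl held the GATA letters from -141 to -136, Myl7 a CArG box from -61 to -52, and Nppa the TATA letters from -9 to -4, T-box letters on the opposite strand from -248 to -243 and NKX2-5 letters from -241 to -235. Among the other members, Bmp10 held the GATA letters at -219 to -214 and at -33 to -28, and Kcnj3 the T-box letters at -38 to -33 on the opposite strand. Thus no motif was found in more than 2 of the 8 members: 1 had TATA, 2 had T-box, 2 had GATA, 1 had NKX2-5, 1 had a CArG box and 0 had a MEF2 box. Of all 32851 promoters of the same length, 12.4% held TATA, 11.8% T-box, 9.99% GATA, 10.1% NKX2-5, 1.47% a CArG box and 2.92% a MEF2 box, where TATAAA can lie within the last 2. A match is a description of letters and not of binding.

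Each array gave 1 bead summary intensity per probe, with a median raw intensity between 103 and 119 per array, and the number of arrays limits the precision. Values below are normalized log2 signals, on which the array median was 6.28, and levels are compared between hearts only, never between probes. Nppa ranked between 3 and 8 of 30854 features on every array, and quantile normalization gives a feature of that rank nearly the same value everywhere. Bmp10, Kcnj3 and the dimmer Myl4 feature lay close to the array median, and Pam somewhat above it, with 26.3% of features brighter. Because the files hold no detection p-values, these 4 features cannot be said to lie above background.

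In the mild line, the signals of the atrial markers changed by very different amounts. Using limma with an adjusted p under 0.05 over all features, 7 of the 10 genes fell in the mild line (Mybphl, Sln, Myl7, Dkk3, Gja5, Myl4 and Kcnj3), 0 rose and 3 did not pass (Bmp10, Nppa and Pam), whereas 1.93% of all 30854 features fell. By the rule of the study, which asks for a 2-fold change and either an adjusted p under 0.05 or an unadjusted p under 0.001, 5 of the 10 fell, against 0.143% of all features. The median log2 fold change of the 10 genes was -0.87, beside 1.8e-05 for all features. In the severe line, 0 of the 10 passed the test.

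Mybphl, which encodes a myosin binding protein of the atrial sarcomere, gave the lowest values relative to wild type. Its log2 signal in the 6 wild type hearts ran from 11.99 through a median of 12.29 to 12.36, and in the severe line it was 11.92, 12.28 and 12.11. In the mild line it was 9.48, 8.95 and 9.04. The lowest wild type heart thus lay well above the highest mild line heart, while 2 severe line hearts lay within the wild type range and 1 just under it. The log2 fold change in the mild line was -3.09 (SE 0.110, 95% interval -3.32 to -2.86, limma adjusted p = 1.7e-12), which leaves 11.7% of the wild type signal on the normalized scale.

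Myl7, the regulatory light chain of atrial myosin, ran from 12.11 through a median of 12.49 to 12.64 in wild type hearts. Its mild line signals were 10.96, 10.16 and 10.74, and its severe line signals 11.76, 12.26 and 12.14. The mild line hearts were again separate from wild type, and 1 severe line heart, replicate 1, lay below every wild type heart. The mild line change was -1.84 (SE 0.146, limma adjusted p = 2.1e-07), or 27.8% of the wild type signal.

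Myl4 encodes the essential light chain of atrial myosin, the partner of the Myl7 product on the same myosin heads. Its brighter feature read 14.58, 14.65 and 14.89 as lowest, median and highest in wild type hearts, 14.20, 13.94 and 13.76 in mild hearts and 14.63, 14.62 and 14.60 in severe hearts. The 3 mild line hearts lay below all others, by a far smaller step than for Myl7. The log2 fold change was -0.71 (SE 0.0863, limma adjusted p = 3.3e-05), leaving 61.0% of the wild type signal. This feature ranked between 18 and 86 on the arrays, where quantile normalization ties values to ranks. The dimmer feature of Myl4 did not move with it (mild line -0.14, limma adjusted p = 0.683), with wild type values from 6.27 to 6.61, and averaging both features gave a change of -0.43.

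Sln encodes sarcolipin, a small membrane protein that inhibits the calcium pump of the sarcoplasmic reticulum in atrial muscle. Wild type hearts ran from 11.86 through a median of 11.999 to 12.44. The mild line hearts read 10.48, 10.02 and 10.26, and the severe line hearts 11.49, 12.06 and 11.77. Sln in the mild line was below every wild type heart, and 2 of the 3 severe line hearts also lay under the lowest wild type value. The mild line change was -1.85 (SE 0.135, limma adjusted p = 7.6e-08), or 27.8% of wild type, the same share as for Myl7.

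Dkk3, a secreted glycoprotein of the Dickkopf family, was also lower in the mild line. Its signals were 10.03, 10.30 and 10.39 as lowest, median and highest of the wild type hearts, then 9.21, 9.31 and 8.999 in mild hearts and 9.93, 10.10 and 10.38 in severe hearts. The mild line hearts did not overlap with wild type, and the severe line hearts ran from just under the wild type range to its top. The mild line change was -1.08 (SE 0.101, limma adjusted p = 1.8e-06), or 47.4% of the wild type signal.

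Gja5 encodes connexin 40, the gap junction protein of atrial muscle, of the fast conduction system and of arterial endothelium. In wild type hearts the log2 signal ran from 7.66 through a median of 7.85 to 8.55. Mild line hearts read 6.87, 6.997 and 6.88, and severe line hearts 7.84, 8.07 and 7.68. The mild line hearts were close to one another and below all wild type hearts, and the widest spread was among the wild type hearts. The mild line change was -1.04 (SE 0.143, limma adjusted p = 1.4e-04), or 48.8% of the wild type signal. Signals as low as those of the mild line hearts cannot be said to lie above background, so how far the transcript fell cannot be read.

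Kcnj3 encodes a subunit of the potassium channel that acetylcholine opens in atrial and nodal cells through G proteins. Its signals were low: 6.59, 6.69 and 6.75 as lowest, median and highest of wild type, 6.32, 6.25 and 6.33 in mild hearts, and 6.56, 6.67 and 6.58 in severe hearts. The mild line hearts lay below wild type and next to the array median, so how far the transcript fell beyond that level cannot be read. The fitted change was -0.38 (SE 0.0615, limma adjusted p = 7.8e-04). Bmp10, a bone morphogenetic protein secreted by atrial muscle, read 6.36, 6.46 and 6.56 as lowest, median and highest of wild type, 6.25, 6.14 and 6.20 in mild hearts and 6.30, 6.37 and 6.61 in severe hearts. Its mild line hearts were also below every wild type heart, but the change of -0.26 (SE 0.0750) did not pass the test (limma adjusted p = 0.0628). It passed without severe line replicate 3, whose Bmp10 signal was the highest of all hearts (limma adjusted p = 0.0338).

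Nppa, the gene of atrial natriuretic peptide, gave a signal at the top of every array, where a change in the transcript may not show. Wild type hearts ran from 15.14 through a median of 15.17 to 15.24, the mild line hearts read 15.24, 15.18 and 15.28, and the severe line hearts 15.24, 15.18 and 15.14. The groups overlapped, and the mild line change was 0.054 (SE 0.0603, 95% interval -0.073 to 0.18, limma adjusted p = 0.822). On the raw scale, before normalization, Nppa lay between 35410 and 40528 on all 12 arrays. With every array scaled only to its median the mild line change was 0.016. Neither scale removes the limit of a probe that bright, so whether the transcript changed cannot be read here. Pam encodes the enzyme that amidates peptides and is a main protein of the membrane of atrial granules. It read 6.63, 6.98 and 7.27 as lowest, median and highest of wild type, 6.96, 7.28 and 6.97 in mild hearts, and 7.13, 6.74 and 7.10 in severe hearts. The groups overlapped, with mild line replicate 2 just above the highest wild type heart, and gave a mild line change of 0.098 (SE 0.116, 95% interval -0.15 to 0.34, limma adjusted p = 0.835).

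Counting hearts without a test, all 3 mild line hearts lay below all 6 wild type hearts for 8 of the 10 genes, Bmp10 included, against 3.92% of all features. Nppa and Pam were the 2 that overlapped. In the severe line, all 10 genes overlapped with wild type, where 3.63% of all features lay wholly below.

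**Figure D1:**
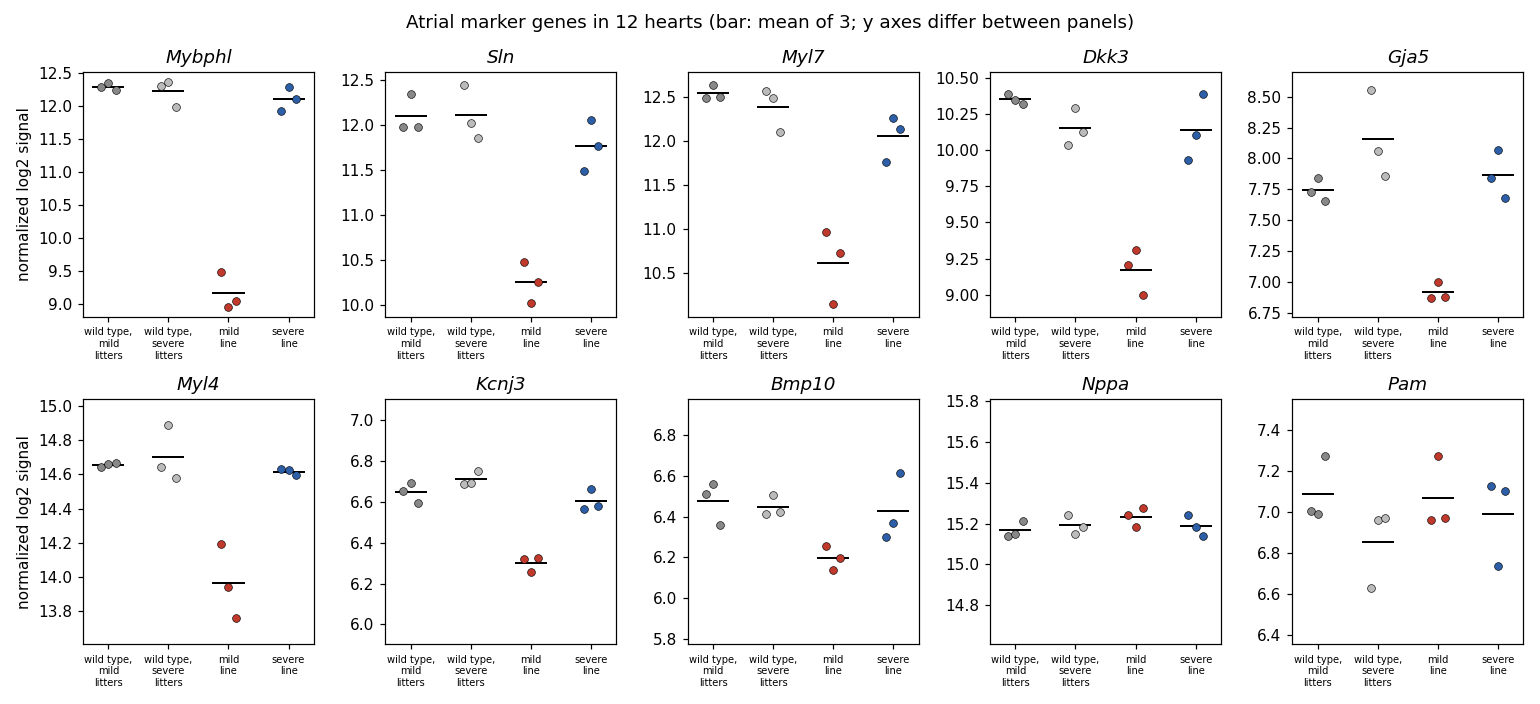
Normalized log2 signal of each atrial marker gene (brightest feature) in each of the 12 hearts, with bars at the mean of the 3 hearts of each set and y axes that differ between panels. The mild line hearts lie below every wild type heart in all panels but those of Nppa and Pam, and the severe line hearts overlap with wild type in every panel.

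The severe line was then compared with the same wild type hearts. None of the 10 genes passed the test (0 of 10, with 2 at an unadjusted limma p under 0.05, Myl7 and Sln), while 1.56% of all features fell in that line. Myl7 had the lowest estimate, -0.41 (95% interval -0.71 to -0.10, limma adjusted p = 0.175), followed by Sln at -0.33 (95% interval -0.61 to -0.045, limma adjusted p = 0.262). Mybphl, with the lowest estimate in the mild line, had -0.15 in the severe line (95% interval -0.38 to 0.079, limma adjusted p = 0.627). The remaining estimates ran from -0.11 for Dkk3 (95% interval -0.32 to 0.10) to 0.018 for Pam. The intervals of Mybphl, Dkk3 and Gja5 (-0.39 to 0.21) do not reach the changes measured in the mild line. The same held for Myl7, Sln, the brighter feature of Myl4 (-0.24 to 0.12) and Kcnj3 (-0.20 to 0.054). The median over the 10 genes was -0.081.

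Both lines could be set against each other directly. Here 7 of 10 genes were lower in the mild than in the severe line, against 0.771% of all features, and the median difference of the 10 was -0.80. The differences were -2.94 for Mybphl (limma adjusted p = 6.2e-11), -1.52 for Sln (1.5e-05), -1.44 for Myl7 (8.7e-05) and -0.97 for Dkk3 (1.3e-04), all lower in the mild line. Gja5 differed by -0.95 (limma adjusted p = 0.00502), Myl4 by -0.65 (0.00142) and Kcnj3 by -0.30 (0.0402), and these 3 calls were less stable. That of Kcnj3 ended without any 1 of the mild or severe line hearts (limma adjusted p from 0.0799 to 0.145), and without replicate 1 or 2 of the mild line's littermates (0.0504 and 0.0534). When each line was compared with its own littermates, as a difference between the changes, only Mybphl, Sln, Myl7 and Dkk3 passed, and Gja5 dropped to -0.54 (limma adjusted p = 0.488). The line with less of the transgene protein thus had the lower signals of these genes.

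The litters bear on that last value. When both sets of littermates were compared with each other, 0 of the 10 genes passed the test (1 at an unadjusted limma p under 0.05), whereas 0.0875% of all features did. The 1 gene was Gja5, at -0.41 in the littermates of the mild line (95% interval -0.70 to -0.13, limma adjusted p = 0.297), where the hearts read 7.73, 7.84 and 7.66 against 8.55, 8.06 and 7.86. Against its own littermates the mild line's change in Gja5 was -0.83, in place of -1.04 with all 6 wild type hearts.

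**Figure D2:**
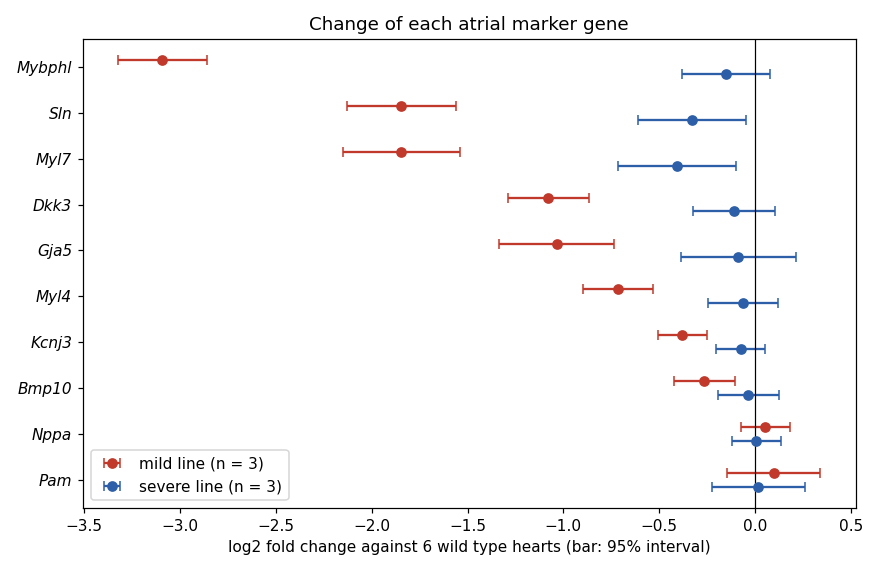
Log2 fold change of each atrial marker gene against the 6 wild type hearts, with its 95% interval from limma, in the mild line (red, n = 3) and the severe line (blue, n = 3). In the mild line the estimates run from -3.09 for Mybphl to 0.098 for Pam, while those of the severe line lie between -0.41 and 0.018.

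To ask whether the signals of the markers fell alike, each gene was divided by Myl7 on the same array. If all signals had fallen by 1 common factor, the log2 ratios to Myl7 would be as in wild type. An equal loss of atrial transcript could still give unequal ratios, so they compare signals and cannot settle amounts of transcript. The background offset of 50 shrinks the change of a dim probe: that of Gja5 was -1.30 with an offset of 16, in place of -1.04. The brightest probes may not show a fall in full, and Gja5 is also used outside atrial muscle. The limma fit of these ratios has p-values that are too small, because every ratio carries the same deviations of Myl7, so an exact permutation test of each ratio over the 84 ways to place 3 of the 9 hearts was added after its result had been seen. It was two-sided, is not adjusted for the 9 ratios, and cannot give a p below 0.0238.

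Sln kept its ratio to Myl7 in the mild line. The log2 ratio ran from -0.53 to -0.13 in wild type hearts and was -0.48, -0.13 and -0.47 in the mild line, with a difference of -0.00034 (exact permutation p = 0.952). Mybphl fell further than Myl7, with a difference of -1.25. Its ratio ran from -0.29 to -0.12 in wild type and was -1.48, -1.20 and -1.69 in the mild line, below wild type in 3 of 3 hearts (exact permutation p = 0.0238). The ratio of Myl4 to Myl7, the light chains of 1 myosin, moved the other way, by 1.13 (exact permutation p = 0.0238). It went from between 2.02 and 2.47 in wild type to 3.23, 3.78 and 3.02 in the mild line. This is the brighter Myl4 feature, which ranked between 18 and 86 on the arrays, where a fall may not show in full. How far the light chain transcripts diverged thus cannot be read from this ratio.

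Dkk3 fell less than Myl7, with a ratio higher by 0.77 and above wild type in 3 of 3 mild line hearts (exact permutation p = 0.0238). For Gja5 the ratio was higher by 0.81, and 1 of the 3 hearts lay within the wild type range (exact permutation p = 0.0476). The ratios of Kcnj3, Bmp10, Nppa and Pam rose by 1.47, 1.58, 1.90 and 1.94, each above wild type in 3 of 3 hearts (exact permutation p = 0.0238 for each). As their own signals were low, or for Nppa at the top of the array, those 4 differences carry mainly the fall of Myl7. In all, 6 of 9 ratios lay above the wild type hearts, 1 below and 2 overlapped, beside 99.9% of all features whose ratio to Myl7 lay outside the wild type hearts. A ratio outside that range is thus the rule for any gene. Sln was 1 of the 20 features of 30853 whose ratio did not pass the limma fit. As that fit gives p-values that are too small, the count mainly restates that few features fell about as far as Myl7.

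In the severe line 1 of the 9 ratios lay outside the wild type hearts, a share near the 13.1% of all features that did. It was that of Mybphl, higher relative to Myl7 by 0.26 (exact permutation p = 0.0238, limma adjusted p = 0.247), and no change in either gene passed the test there. The ratio of Bmp10 was higher by 0.37 with overlap (exact permutation p = 0.0476), and the other ratios overlapped as well.

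The order of the changes in the mild line was Mybphl, Sln, Myl7, Dkk3, Gja5, Myl4, Kcnj3, Bmp10, Nppa and Pam. Using the ratio of each gene to the next on the same array, the mild line hearts were separate from wild type for Mybphl over Sln (a difference of -1.25), Myl7 over Dkk3 (-0.77), Kcnj3 over Bmp10 (-0.11) and Bmp10 over Nppa (-0.32). They overlapped for Sln over Myl7, Dkk3 over Gja5 (-0.042), Gja5 over Myl4 (-0.32), Myl4 over Kcnj3 (-0.34) and Nppa over Pam (-0.044). Since the order was taken from the same values, these are descriptions. The places of Kcnj3, Bmp10 and Pam, whose signals cannot be said to lie above background, are set in part by that limit. So is that of Gja5, whose mild line signals were low as well, while that of Nppa is limited by the top of the arrays. The order is thus best read from Mybphl to Dkk3.

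**Figure D3:**
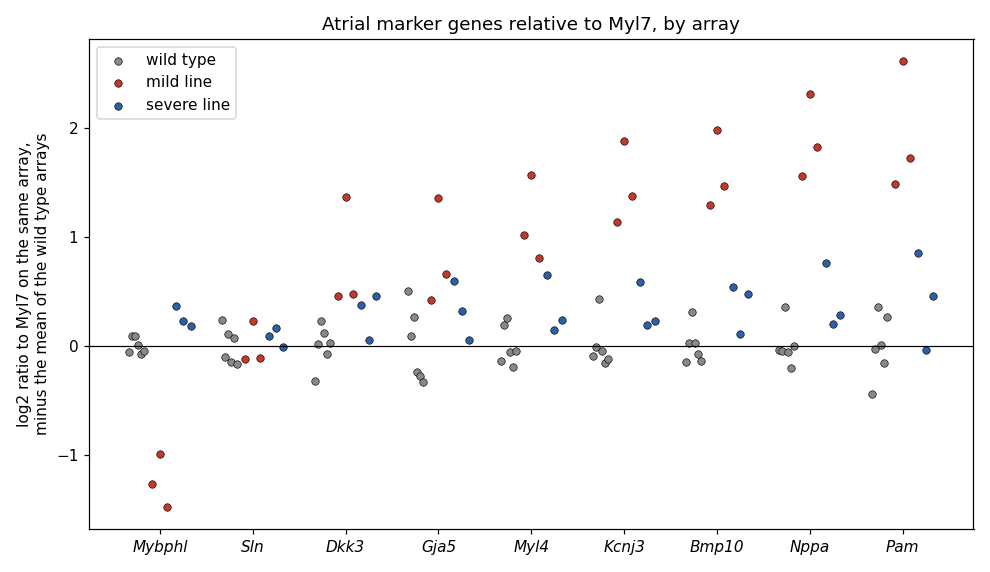
Log2 ratio of each atrial marker gene to Myl7 on the same array, minus the mean of the wild type arrays, with 1 point per heart. Sln in the mild line (red) stays within the wild type hearts, Mybphl lies below them and 6 of the other genes lie above them.

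Some of these genes also varied together from heart to heart within a group. After the mean of each of the 4 sets of 3 hearts was taken away, the deviations of Mybphl followed those of Myl7 with a Pearson r of 0.880 and a Spearman rho of 0.853 over 12 arrays, and those of Sln with 0.841 and 0.874. Only 0.1005% and 0.250% of all features had an r as high or higher. Without the 2 hearts farthest from their group in Myl7 (mild line replicate 2 and severe line replicate 1), r was 0.864 and 0.815. Mild line replicate 2 had the lowest value of Mybphl, Myl7 and Sln, and severe line replicate 1 the lowest of its line in all 3. These arrays share their normalization, and the values are descriptions.

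The other markers followed Myl7 less. Pearson r was 0.450 for Bmp10, 0.410 for Kcnj3, 0.344 for Myl4, 0.281 for Gja5, 0.164 for Nppa and 0.0071 for Dkk3, where between 10.6% and 49.1% of all features had at least that r. Without the same 2 hearts, r was 0.210 for Bmp10 and 0.052 for Kcnj3, and 0.490 for Myl4 and 0.561 for Gja5. Pam ran opposite to Myl7, with an r of -0.718 and a rho of -0.874. Dkk3 fell in the mild line, while its deviations within groups showed no relation to those of Myl7, though 12 arrays give an imprecise r.

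The 5 genes closest to Myl7 by this measure, among 11955 features with 1 symbol above the array median, were Dbi (r = 0.925), Bckdhb (0.911), Sdhb (0.909), 1700084E18Rik (0.899) and Elac1 (0.893). Dbi encodes a protein that binds acyl-CoA, Bckdhb a subunit of the enzyme that breaks down branched-chain keto acids, and Sdhb a subunit of mitochondrial complex II. In the mild line 0 of the 5 passed the test, with log2 fold changes of -0.23, -0.28, 0.020, -0.047 and -0.079 (limma adjusted p from 0.142 to 0.956). In the severe line, Bckdhb fell by 0.76 (limma adjusted p = 0.00491) and Sdhb by 0.48 (5.0e-04), and the other 3 did not pass.

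Other genes that mark atrial cells were measured to see whether they moved in the same way. Of 12 further atrial genes, 10 were on the array, and 3 fell in the mild line while 0 rose, with a median log2 fold change of -0.076. Angpt1, which encodes a ligand of the endothelial receptor TEK, fell by 0.79 (limma adjusted p = 3.8e-05), Fgf12, whose protein modulates sodium channels, by 0.59 (9.4e-06) and Stard10, a lipid transfer protein, by 0.47 (0.00464). Angpt1 and Fgf12 lay close to the array median in mild line hearts, so how far they fell cannot be read. Tbx5, Nr2f2, Sbk2 and Cacna1h were close to the array median in wild type hearts. The others, Kcnk3, Kcna5 and Kcnj5, did not pass in the mild line. Their changes were -0.0039, -0.0016 and -0.24 (limma adjusted p = 0.992, 0.998 and 0.172). Among severe hearts 0 fell and Cacna1h, a T-type calcium channel, rose by 0.41 (limma adjusted p = 0.00129).

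Markers of ventricular muscle were read beside the atrial ones. Of 6 such genes 0 passed the test in the mild line, with a median of -0.0025. Myl2 had 0.050 and Myl3 -0.055, the light chains of ventricular myosin, both also near the top of the arrays, where a change may not show. Irx4, a transcription factor of ventricular muscle, had 0.24 (limma adjusted p = 0.152) with all 3 mild line hearts above every wild type heart, and Myh7 0.31 (0.0958) with overlap. In severe hearts Myh7, the slow myosin heavy chain, rose by 0.59 (limma adjusted p = 8.4e-04). Of 7 general heart muscle genes measured, 1 fell in each line, Pln, and the median was 0.21 in mild hearts.

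Genes of the conduction system were read because Gja5 and Kcnj3 act there too. Of 10 measured, 3 fell in the mild line and 0 rose: Cntn2, a cell adhesion protein of conduction fibers, by 0.51 (limma adjusted p = 0.00137), Cacna1g, another T-type calcium channel, by 0.49 (0.00549) and Tbx3, a transcription factor of nodal cells, by 0.33 (0.0275). Cntn2 and Cacna1g lay near the array median in mild line hearts, so how far they fell cannot be read. Hcn4, Shox2 and Isl1, which define the sinus node, lay near the array median in wild type hearts, as did Cacna1d, Tbx18 and Gjd3. Gjc1 had 0.035 in the mild line without passing (limma adjusted p = 0.919). None passed in the severe line (0 of 10). The other connexins included 1 that fell, Gja1 (connexin 43 of the working muscle), by 0.88 in the mild line (limma adjusted p = 4.9e-05), with wild type hearts between 13.32 and 13.96 and mild line hearts between 12.57 and 12.81. Arterial endothelial genes, where Gja5 is also used, gave 0 of 6 in either line, with a median of 0.0036 in the mild line. Of those 6, 3 lay within 0.5 of the array median in wild type hearts.

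The pathway of each marker was read as a list. Around sarcolipin, 5 of 8 genes of the sarcoplasmic reticulum fell in mild hearts and 3 in severe hearts, with 0 higher. Ryr2, the calcium release channel, fell by 1.11 (limma adjusted p = 4.0e-07) and 0.49 (0.00412) in the mild and severe lines, and Pln (phospholamban, the relative of sarcolipin in ventricles) by 1.09 (2.7e-05) and 0.68 (0.00479). Atp2a2, the calcium pump that both inhibit, fell by 0.50 in the mild line (limma adjusted p = 5.5e-05), as did Casq2, which binds calcium in the store, by 0.50 (0.0240). Hrc, a calcium binding partner, fell by 0.41 (limma adjusted p = 0.00220) and 0.34 (0.0137). The median of the list was -0.46 in mild and -0.072 in severe hearts. Pln and Ryr2 thus fell in both lines, whereas Sln passed in the mild line only, where it also differed from the severe line.

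Around Nppa, Corin, the protease that cuts the natriuretic peptide precursor on the surface of heart muscle cells, fell in both lines, by 1.48 in mild hearts (limma adjusted p = 3.9e-08) and 0.63 in severe hearts (0.00123). Its signals in wild type hearts were between 11.73 and 12.19, in mild hearts between 10.56 and 10.61, and in severe hearts between 11.28 and 11.72. Nppb, the gene of B-type natriuretic peptide, rose by 1.44 (limma adjusted p = 3.6e-04) and 0.88 (0.0288). The remaining 6 of the 8 genes did not pass in either line. The 2 natriuretic peptide genes therefore read differently on these arrays, bearing in mind that Nppa sat at the top of the scale.

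Around Kcnj3, 0 of 8 genes of the vagal pathway fell. Its channel partner Kcnj5 had -0.24 in the mild line without passing, the muscarinic receptor gene Chrm2 0.21 without passing, and Gnai2, an inhibitory G protein subunit, rose by 0.36 (limma adjusted p = 0.0171) and 0.34 (0.0312) in the mild and severe lines. Gnb1, a G protein β subunit, rose in the severe line by 0.32 (limma adjusted p = 0.0405). Around Bmp10, 1 of 11 receptor and target genes fell in the mild line, Tcap, which encodes a protein of the sarcomere's Z-disc, by 0.68 (limma adjusted p = 4.3e-04), and Id2, a target of BMP signaling, rose in the severe line by 0.39 (0.0235). Among 8 Wnt genes related to Dkk3, Kremen1, a receptor of other Dickkopf proteins, rose by 0.79 (limma adjusted p = 6.0e-05) and 0.58 (0.00206).

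Cells other than muscle were read by their markers. Endothelial (6), epicardial (5 measured), adipose (6), lung (6), lymphoid (6) and red blood cell (3 measured) genes gave 0 calls in either line. Of these, 1, 3, 4, 6, 5 and 0 in that order lay within 0.5 of the array median in wild type hearts, where a fall may not show. Of all features 1.93% fell in the mild and 1.56% in the severe line, so 0 calls in lists this small tell little. Of 5 measured genes of cardiac nerves, 1 fell in the mild line, Dbh, the enzyme that makes noradrenaline, by 0.94 (limma adjusted p = 1.4e-04). Its signals went from between 6.93 and 7.36 in wild type to between 5.99 and 6.46 in mild hearts. The latter lie around the array median, so how far Dbh fell cannot be read. Th, Npy, Prph and Chat were near the array median. The mean linear signal of that list was between 83.9 and 94.1 in wild type hearts, between 70.8 and 72.9 in mild hearts and between 79.2 and 94.3 in severe hearts. That mean mainly follows Dbh, as Th, Npy, Prph and Chat changed by -0.12 to -0.045 in the mild line without passing. Of 6 smooth muscle genes, 1 fell in the mild line and 2 rose in the severe line. Acta2, smooth muscle actin, was lower by 0.56 in the mild line (limma adjusted p = 0.0156) and higher by 0.61 in the severe line (0.00818). Tagln was higher by 0.70 in the severe line (limma adjusted p = 6.3e-05) and had 0.13 in the mild line without passing (0.623). Myh11, Cnn1, Smtn and Myocd passed in neither line. Of 6 fibroblast genes, Col1a1, a collagen chain, rose by 0.48 in the severe line (limma adjusted p = 0.0114). The part of these cells in the values of the atrial markers was not tested.

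**Figure D4:**
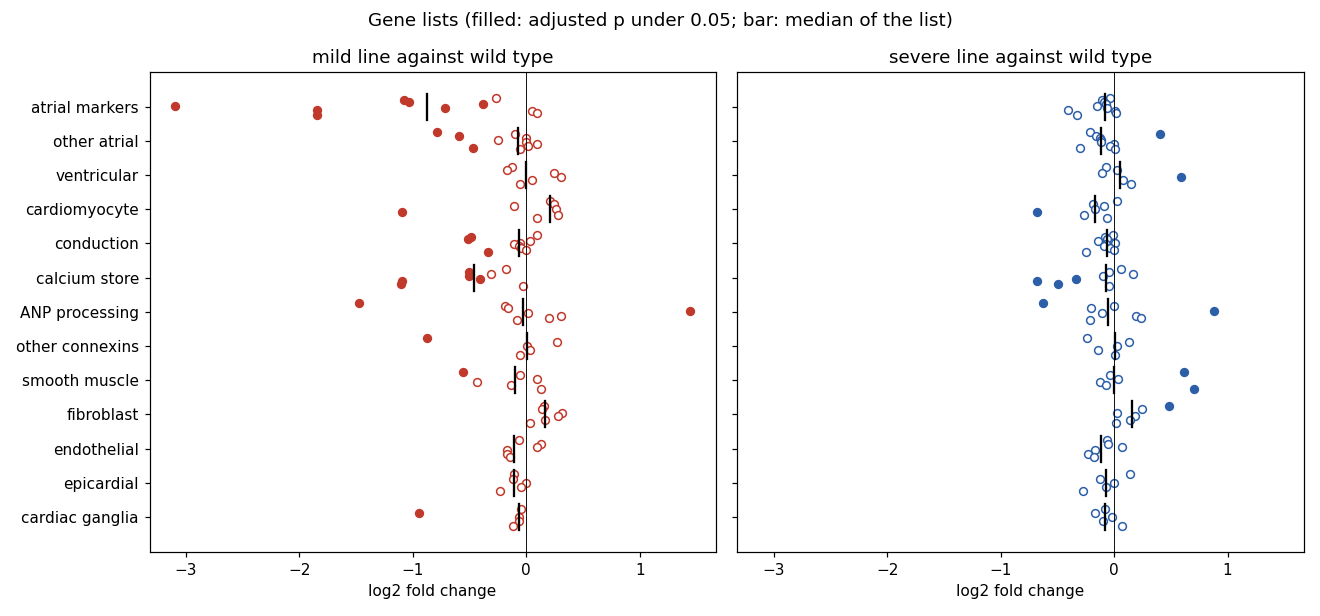
Log2 fold change against wild type of each gene in the atrial marker set and in other gene lists, in the mild line (left, red) and the severe line (right, blue), with filled points at an adjusted p under 0.05 from limma and bars at the median of a list. The bar of the atrial markers stands at -0.87 on the left and at -0.081 on the right.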

How the data were processed

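Total RNA from 12 mouse hearts in 4 groups of 3 had been measured, and groups were taken from the labels. Per array, the authors deposited a file of intensity values, 1 bead summary for each probe, without scaling across arrays as far as the values show. Any background subtraction before export is not given in the sources used here. A second table deposited by the authors gives log2 values that they had background corrected and quantile normalized, and it served as an alternative. GenomeStudio and limma are named in the submitters' processing notes, without versions. Columns of per-sample values left unused numbered 0.

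Analysis used R 4.3.3 and limma 3.58.1. The raw intensity had its background removed with normexp (offset 50), followed by quantile normalization and log2, so a fold change of a dim probe is understated. IDs of a gene with identical values were merged, and the brightest feature stood for a gene. Of 45281 IDs, 34885 had 1 symbol, 18 several and 10378 none, and 6 lines without an ID were left out. Group means of wild type, mild and severe hearts were fitted on all 12 arrays with empirical Bayes variances, and p-values were adjusted by the Benjamini-Hochberg method over 30854 features. Samples are separate hearts. The fit was tested on simulated data.

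The members and the 20 other gene lists were chosen with earlier results of these data known. Named were all members, up to 4 genes of each list with an adjusted p under 0.05 in a comparison by size of change, and the 5 genes most like Myl7. Other genes of a list that are given as examples were chosen after their values were seen. The alternatives were another background correction, scaling, filter, variance model, array weights, averaged features, own littermates with and without a replicate block, the authors' table and leaving out each array. Promoters came from RefSeq, GRCm38.p6. Protein and probe sequences were not used here.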

Additional observations from a re-analysis of the deposited data

Results flagged for a closer look

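Among the 6 wild type hearts, 1 heart stood apart from the others in each of 3 genes, by the gap to its nearest neighbor over the whole range, a criterion that chance meets in about 1 of 20 groups. Replicate 3 of the severe line's littermates had the lowest log2 signal of Mybphl (11.99) and of Myl7 (12.11), and replicate 2 of the same littermates the highest signal of Myl4 (14.89). Without either heart, all 7 genes that fell in the mild line still passed the test.

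There were 7 genes that changed by different amounts in the 2 lines, by the direct limma comparison of mild with severe hearts. The mild minus severe log2 differences were -2.94 for Mybphl, -1.52 for Sln, -1.44 for Myl7, -0.97 for Dkk3, -0.95 for Gja5, -0.65 for Myl4 and -0.30 for Kcnj3, with 3 hearts of each line and every mild line heart below every severe line heart.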

How the results depend on the processing

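The 7 genes that fell in the mild line passed in all 22 alternatives, with ranges from -3.25 to -2.94 for Mybphl, -1.96 to -1.73 for Sln, -2.02 to -1.61 for Myl7, -1.18 to -0.99 for Dkk3, -1.30 to -0.83 for Gja5, -0.83 to -0.43 for Myl4 and -0.61 to -0.28 for Kcnj3. Bmp10, from -0.46 to -0.19, passed there in 3 of 22: among features above the array median, with array weights and without severe line replicate 3. No gene passed in the severe line under any of the 22. In the comparison of the lines, 4 of 10 genes passed (Mybphl, Sln, Myl7 and Dkk3) in place of 7 when each line was set against its own littermates, both without and with a replicate block, and otherwise from 5 to 7. Kcnj3 lost that call in 12 of 22 alternatives, among them the removal of any 1 mild or severe line heart, and Myl4 in 4, among them median scaling (-0.43) and averaged features (-0.27). Ratios to Myl7 in the severe line passed in 0 of 9 by the limma fit, in 3 with median scaling, in 0 to 3 when 1 array was left out (2 without replicate 3 of the severe line's littermates, 3 without mild line replicate 2), and in 2 by the exact permutation test. The cause was not tested. Values that never passed changed sign. With median scaling, Nppa and Pam in the severe line were -0.068 and -0.036, and the ratio of Sln to Myl7 in the mild line was 0.0044. It was 0.0050 without background correction. With own littermates, and the same with the replicate block, Pam was -0.020 in the mild line and -0.15 between the lines, Nppa -0.0033 in the severe line, and the ratio of Sln 0.081 in the mild and -0.0022 in the severe line. Leaving out each array gave -0.0061 to 0.16 for Pam in the mild line, -0.051 to 0.14 in the severe line and -0.047 to 0.15 between them. In the severe line it gave -0.018 to 0.031 for Nppa, -0.13 to 0.029 for Bmp10 and -0.19 to 0.034 for Gja5, and for the ratio of Sln in the mild line -0.12 to 0.059. Replicate numbers showed no visible pairing of hearts. Deviations of same-numbered transgenic and littermate hearts correlated between -0.244 and 0.056, and 1 of 6 hearts matched its own number best. With 3 hearts per group this cannot decide whether the numbers pair litters, and the labels do not say. Array weights could not be fitted to the ratios and were not run there, and neqc was not run because it needs detection p-values. Signal over background limits Bmp10, Kcnj3 and Pam, and also Gja5 in the mild line. The top of the scale limits Nppa and may limit Myl4.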
